A study of Mus musculus with 4 samples.

Results

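The 44 genes described here act in the cell cycle and in DNA replication, and they were picked by name out of the 20716 genes of a mouse ribosome footprint table. They comprise 18 replication genes, 15 genes of mitosis, 7 cyclins and kinases of G1 and S phase, and 4 genes of the RB and E2F axis. The replication genes divide further into 9 of origin licensing, 6 of helicase activation and the replication fork, and 3 of deoxynucleotide synthesis. In ribosome profiling, mRNA fragments that ribosomes shield from nuclease are sequenced. It was done on 4 cultures of C57BL/6 mouse cells, with 1 library each: Mettl3-KO embryoid bodies (KO EBs), wild-type embryoid bodies (WT EBs), Mettl3-KO embryonic stem cells (KO ESCs) and wild-type embryonic stem cells (WT ESCs). Mettl3 encodes the catalytic subunit of the enzyme that places N6-methyladenosine on mRNA. All ESCs were held naive without serum in N2B27 medium with LIF, CHIR99021 and PD0325901. EBs are floating aggregates in which ESCs differentiate, and they were kept 8 to 21 days in medium with serum. Which day each EB library is from, the deleted part of Mettl3 and the number of cell clones are not given in the labels. With 1 library per group there was no replicate check of any difference below.

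A dividing cell copies its DNA in S phase and separates the copies in mitosis. In G1, the origin recognition complex, CDC6 and CDT1 load the MCM helicase onto DNA, a step called licensing. CDC45 and the GINS complex then switch the helicase on, and PCNA, a ring loaded by replication factor C, holds the polymerases at the fork. D-type cyclins with CDK4 or CDK6, and cyclin E with CDK2, inactivate RB and so free E2F factors to transcribe replication genes. Many genes of mitosis are transcribed later, through CHR elements and through CCAAT boxes bound by NF-Y.

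Reads on genes numbered 4075850 in KO EBs, 4234361 in WT EBs, 11455539 in KO ESCs and 8570204 in WT ESCs, and 1 read was worth between 0.533 and 1.56 normalised counts. Mettl3 (NM_019721) had 327 normalised counts in KO EBs against 429 in WT EBs, and 298 in KO ESCs against 563 in WT ESCs. As the deleted part of the gene is not given, these values do not check the labels. The 12 naive ESC markers summed to 24439 normalised counts in KO EBs, 14251 in WT EBs, 21126 in KO ESCs and 29478 in WT ESCs, with Nanog between 3691 and 6105, and Tbx3 was listed at 0. EBs of both genotypes therefore carried naive marker footprints. The 12 visceral endoderm markers summed to 1754 in KO EBs, 46779 in WT EBs, 248 in KO ESCs and 205 in WT ESCs, and Dab2 was listed at 0. KO EBs were below WT EBs by at least 2-fold for all 11 measured ones. The 12 mesenchyme and matrix markers summed to 11362 in KO EBs, 2871 in WT EBs, 3275 in KO ESCs and 654 in WT ESCs, with Fn1, Postn and Dcn listed at 0. Cell makeup, as these lists show it, thus moved with genotype and stage, and its part in every result below was not tested. In such bulk libraries fewer cells of a type, less mRNA per cell and fewer ribosomes per mRNA cannot be told apart.

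Of the 44 members, 38 had a mean of at least 25 normalised counts over the 4 libraries and were compared. The other 6 were lost in counting. Cdc45, Bub1, Ccne2, Cdk2 and Ccnd3 were listed at 0 in every library, and Cdc6 had between 1 and 7 reads. Each of them has 2 or 3 RefSeq entries, and reads on bases that entries share were set aside as ambiguous. The bases left to a single entry numbered 138 of 1701 for Cdc45, 3 of 3180 for Bub1, 0 of 1215 for Ccne2, 144 of 1041 for Cdk2, 0 of 879 for Ccnd3 and 81 of 1770 for Cdc6. A value of 0 here says nothing about whether these genes were translated. Gins1 passed with 189 of 591 bases to itself. Reads that fit more than 1 genomic place were also dropped, and 28-nt windows with a copy elsewhere made up 92.4% of Ccnb1, 77.9% of Pcna, 55.0% of Mcm7 and 44.3% of Mybl2. For these genes the level, more than the fold, is uncertain.

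The measured members held 1.05% of all gene signal in KO EBs, 1.35% in WT EBs, 1.24% in KO ESCs and 1.49% in WT ESCs. WT ESCs had the highest level of 21 of the 38 members, and KO EBs the lowest level of 22. The replication genes together had 31368 normalised counts in KO EBs, 38318 in WT EBs, 38329 in KO ESCs and 51654 in WT ESCs, so that WT ESCs stood above the other libraries. The mitosis genes had 25160 in KO EBs, 42857 in WT EBs, 30142 in KO ESCs and 39046 in WT ESCs, so that WT EBs stood highest. The mitosis sum was 0.802 of the replication sum in KO EBs, 1.12 in WT EBs, 0.786 in KO ESCs and 0.756 in WT ESCs. WT EBs alone had more mitosis than replication footprints over these members, which depends on the genes chosen. In the lists of further genes described below, the mitosis sum was above the replication sum in every library. It was 28298 against 24305 in KO EBs and 44996 against 31233 in WT EBs. In ESCs it was 36811 against 31424.5 in KO and 43374 against 37690 in WT. All 8 measured licensing genes were highest in WT ESCs, whereas 9 of the 14 measured mitosis genes were highest in WT EBs and 9 were lowest in KO EBs. These counts of highest and lowest libraries, and those over the 38 members above, were not made over all genes. Whether the members differ from the whole table in them was therefore not tested.

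**Figure D1:**
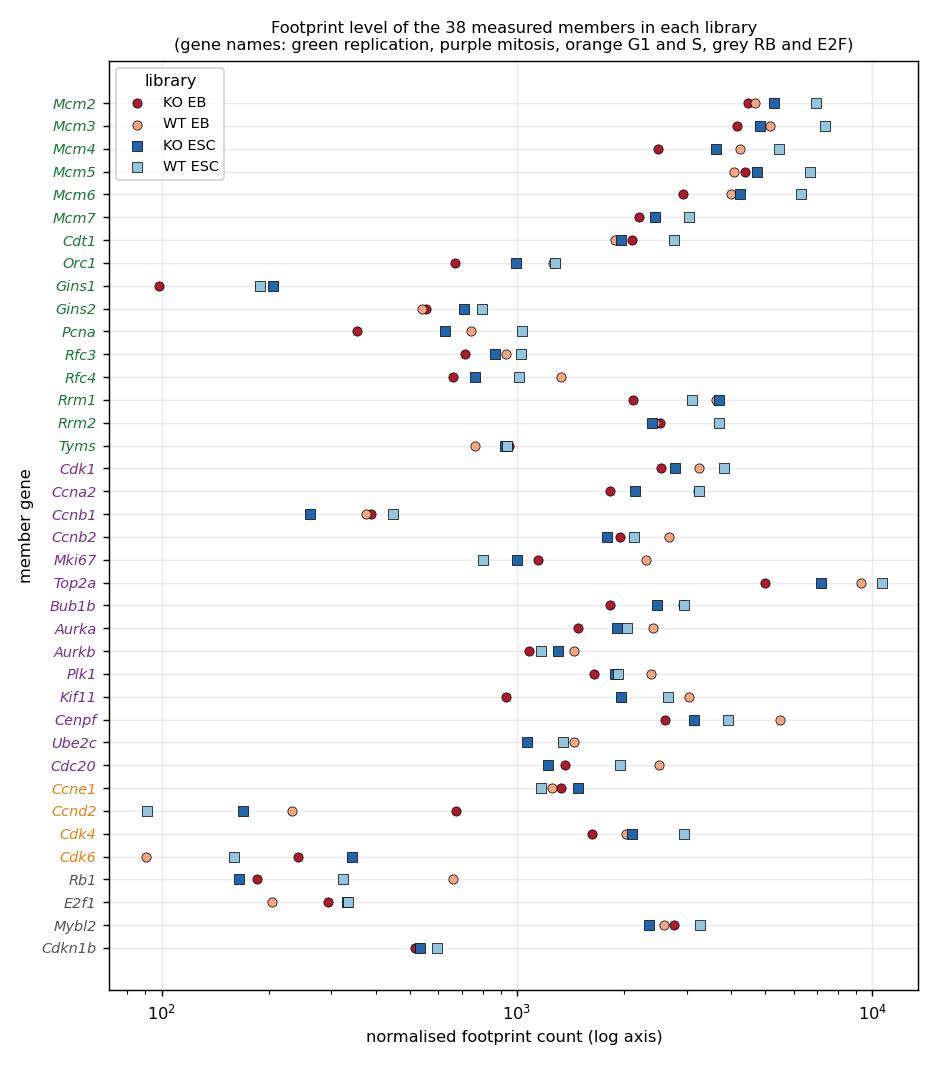
Normalised footprint count (log axis) of the 38 measured members in KO EBs, WT EBs, KO ESCs and WT ESCs, 1 library each and therefore without error bars. WT ESCs hold the highest point of 21 members, all 8 licensing genes among them, and KO EBs hold the lowest point of 22. No such count was made over all genes.

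In KO EBs set against WT EBs, 27 of the 38 members had a log2 fold below 0, against 53.5% of all 9670 genes tested. The median log2 fold was -0.40 over the members and -0.07 over all genes. It was -0.35 over the 16 measured replication genes and -0.69 over the 14 measured mitosis genes, of which 13 lay below 0. The replication median pools -0.23 over 8 licensing genes, -0.93 over 5 fork genes and 0.05 over 3 genes of deoxynucleotide synthesis. With a correction for coding GC content, described further on, the fork genes came to -0.66 (Pcna), -0.53 (Gins1), -0.34 (Rfc4), -0.21 (Gins2) and -0.10 (Rfc3). The licensing genes then ran from -0.59 (Orc1) to -0.008 (Mcm5), so the gap between these groups rests on the uncorrected folds. Rb1, Kif11, Cenpf, Pcna, Rfc4 and Mki67 were at least 2-fold lower, a count of 6 of 38 beside 12.2% of all genes. Ccnd2 and Cdk6, 2 of 38, were at least 2-fold higher, beside 15.2% of all genes. The share past 2-fold was thus near that of the whole table in the lower direction and under it in the higher one, while the median of the members lay below that of all genes. The sum ratio of KO EBs to WT EBs was 0.819 for replication genes (95% counting interval 0.804 to 0.834) and 0.587 for mitosis genes (0.576 to 0.598). All such intervals, here and below, are exact binomial ones on the recovered reads. They cover counting error only and no variation between libraries. They may understate even the counting error, since reads amplified by PCR are not independent molecules.

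In KO ESCs set against WT ESCs, 31 of the 38 members had a log2 fold below 0, against 50.3% of all genes. The medians were -0.35 over the members, -0.40 over replication genes, -0.32 over mitosis genes and -0.0044 over all genes. Cdk6 alone was at least 2-fold higher (10.6% of all genes were), and no member was 2-fold lower (4.42% of all genes were). The sum ratio of KO ESCs to WT ESCs was 0.742 for replication genes (0.734 to 0.750) and 0.772 for mitosis genes (0.763 to 0.781). On these uncorrected values, replication and mitosis genes were thus lower in KO ESCs by like amounts, while in KO EBs the mitosis genes were the lower of the 2 groups. Scaling each library to the same total, in place of the authors' factors, moved the median of all genes up by 0.12 in EBs and by 0.13 in ESCs. All 4 of these group medians stayed below 0 under it, while the members at least 2-fold lower in KO EBs numbered 2 in place of 6 and those at least 2-fold higher in KO ESCs numbered 2 in place of 1. With the correction for coding GC content, the medians of KO ESCs over WT ESCs were -0.39 for replication and -0.19 for mitosis genes. Those of KO EBs over WT EBs were -0.26 and -0.51.

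In KO EBs set against KO ESCs, 27 of the 38 members had a log2 fold below 0 (55.0% of all genes did). Ccnd2 was at least 2-fold higher, beside 9.31% of all genes, and Kif11 and Gins1 were at least 2-fold lower, beside 6.65%. In WT EBs set against WT ESCs, 24 of the 38 lay below 0 (51.8% of all genes did). Mki67, Ccnd2 and Rb1 were at least 2-fold higher, beside 11.0% of all genes, and no member was 2-fold lower, beside 8.25%. The replication sum was lower in EBs of both genotypes, at 0.818 of the ESC sum in KO (0.806 to 0.831) and 0.742 in WT (0.731 to 0.753). The mitosis sum was 0.835 of the ESC sum in KO EBs (0.820 to 0.849) and 1.10 times it in WT EBs (1.08 to 1.11). The median log2 fold of mitosis genes was -0.21 in KO and 0.22 in WT, that of replication genes was -0.26 in KO and -0.42 in WT, and that of all genes was -0.08 in KO and -0.02 in WT. Corrected for the GC content of the coding sequence, as described further on, the mitosis median in KO was -0.031, with 7 of 14 below 0, and Kif11 (-0.56) and Gins1 (-0.83) lay inside 2-fold.

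These EB changes share no library, and their difference, KO minus WT, was below 0 for 20 of the 38 members, against 54.3% of all genes. Mki67 (-1.32), Kif11 (-1.28), Gins1 (-1.05) and Rrm1 (-1.02) differed by at least 1 on the log2 scale in the lower direction, beside 12.5% of all genes. No member did so in the higher direction, where 11.4% of all genes did. With the same correction for GC content none of the 4 stayed past 1, at -0.98 for Mki67, -0.73 for Kif11, -0.78 for Gins1 and -0.68 for Rrm1, and Ccnb1 came to 1.004 in the higher direction. The median difference was -0.38 over mitosis genes, -0.08 over all genes and 0.14 over replication genes, where it turned to -0.014 with the members under 10% copied alone. With 1 library per group none of these differences could be tested.

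**Figure D2:**
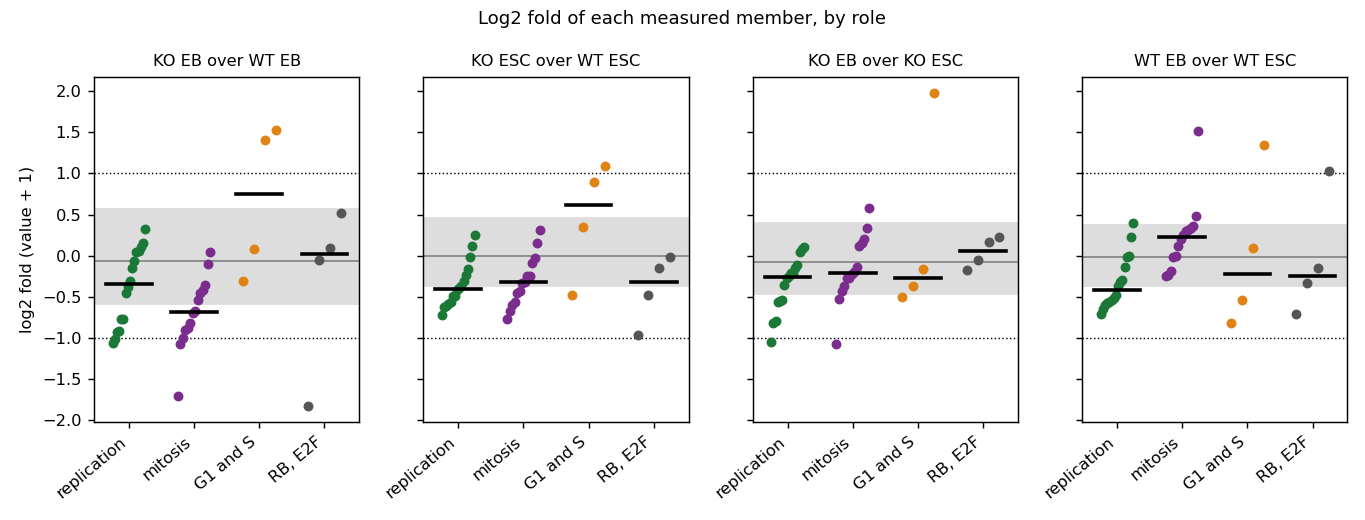
Log2 fold with a pseudocount of 1 for every measured member, by role, in the 4 comparisons; black bars are group medians, the grey line and band are the median and middle 50% of all 9670 genes, and dotted lines mark 2-fold. Of the groups plotted, mitosis genes have the lowest median in KO EBs over WT EBs (-0.69), and their median is 0.22 in WT EBs over WT ESCs, and no error bars exist for single libraries.

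The promoters of members were read to show what groups that lay low or high together carry upstream. RefSeq promoters of GRCm38.p6, the same assembly as mm10, matched 36 of the 44 members. The 250 bases before each start were searched on both strands for an E2F site (TTTCCCGC, TTTCGCGC, TTTGCCGC or TTTGGCGC), for the CHR element (TTTGAA) and for the CCAAT box (CCAAT). No motif contains another, although E2F matches on opposite strands can overlap. An E2F site stood before 6 of 15 matched replication genes, 1 of 13 mitosis genes and 2.16% of all 27025 genes with a promoter. A CHR stood before 7 of 13 mitosis genes, 2 of 15 replication genes and 18.3% of all. A CCAAT box stood before 13 of 13 mitosis genes, 11 of 15 replication genes and 37.5% of all. These are matches of letters and not tested sites. The 120 bases up to the start are printed for 2 replication genes with an E2F match (Mcm6 and Rfc3) and 4 mitosis genes with a CHR, Kif11 with its low value in KO EBs among them. Each is 5′ to 3′ on the gene's strand, with matches in capitals.
Mcm6 (chr1:128359706-128359825, minus strand): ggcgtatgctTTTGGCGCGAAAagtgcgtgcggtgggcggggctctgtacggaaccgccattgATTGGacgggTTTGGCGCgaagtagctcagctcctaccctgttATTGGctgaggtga
Rfc3 (chr5:151651209-151651328, minus strand): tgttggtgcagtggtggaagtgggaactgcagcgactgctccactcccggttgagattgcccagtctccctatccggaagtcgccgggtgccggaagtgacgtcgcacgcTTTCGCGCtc
Kif11 (chr19:37376262-37376381, plus strand): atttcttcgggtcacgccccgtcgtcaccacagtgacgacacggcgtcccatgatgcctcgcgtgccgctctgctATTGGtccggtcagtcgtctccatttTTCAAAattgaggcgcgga
Cdk1 (chr10:69352913-69353032, minus strand): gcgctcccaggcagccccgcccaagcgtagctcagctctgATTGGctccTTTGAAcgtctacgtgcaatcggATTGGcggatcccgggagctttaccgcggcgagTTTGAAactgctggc
Cdc20 (chr4:118437344-118437463, minus strand): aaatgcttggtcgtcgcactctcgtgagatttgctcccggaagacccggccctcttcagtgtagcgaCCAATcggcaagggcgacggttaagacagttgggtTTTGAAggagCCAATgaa
Ube2c (chr2:164769809-164769928, plus strand): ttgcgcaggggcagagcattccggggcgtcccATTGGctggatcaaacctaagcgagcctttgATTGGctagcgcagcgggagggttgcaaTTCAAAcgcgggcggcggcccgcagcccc
The first capital run of Mcm6 joins overlapping E2F matches on opposite strands. In Kif11 and Ube2c the CHR is read on the opposite strand (TTCAAA), while Cdk1 and Cdc20 have it on the strand of the gene.

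Among the licensing genes, Mcm2 to Mcm7 encode the subunits of the ring-shaped replicative helicase, which contains each of them in equal number. Per kb of coding sequence, the mean of the 6 subunits was 1416 ± 418 normalised counts in KO EBs, 1679 ± 325 in WT EBs, 1723 ± 386 in KO ESCs and 2447 ± 613 in WT ESCs (SD over subunits, not over libraries). All 6 were highest in WT ESCs. Mcm7, of which 55.0% is copied elsewhere in the genome, was the lowest subunit in every library except KO EBs, where Mcm4 was lowest. Among the 5 subunits with under 10% of windows copied, the highest density was 2.06 times the lowest in KO EBs, 1.30 times in WT EBs, 1.53 times in KO ESCs and 1.43 times in WT ESCs. These 5 subunits were thus least even in KO EBs, where Mcm5 reached 1981 per kb and Mcm4 was at 961 per kb. Mcm4 is at 48.0% GC and Mcm5 at 54.9%. Their log2 folds of KO EBs over WT EBs were -0.77 and 0.10, and -0.45 and -0.008 when corrected for GC content.

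**Figure D3:**
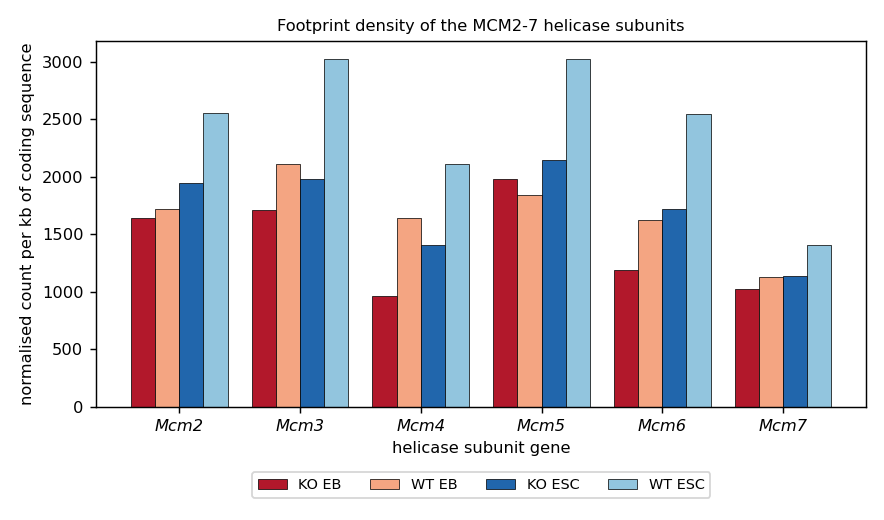
Normalised footprint count per kb of coding sequence for the 6 MCM helicase subunits, with bars for KO EBs, WT EBs, KO ESCs and WT ESCs (1 library each, axis from 0). WT ESCs are highest for every subunit, and Mcm4 in KO EBs is the lowest bar at 961 per kb.

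Mcm4 (NM_008565; chromosome 16, 15623897 to 15637400 in GRCm38.p6) had 2487 normalised counts in KO EBs, 4250 in WT EBs, 3636 in KO ESCs and 5472 in WT ESCs. Its ratio of KO to WT was 0.585 in EBs (0.550 to 0.622) and 0.664 in ESCs (0.643 to 0.687), so that KO was the lower genotype at both stages. Mcm6 had 2924 in KO EBs, 4002 in WT EBs, 4246 in KO ESCs and 6279 in WT ESCs. Its libraries stood in the same order as the sum of the licensing genes. For Mcm3 the counts were 4166 in KO EBs, 5162 in WT EBs, 4831 in KO ESCs and 7372 in WT ESCs. For Mcm5 they were 4369 in KO EBs, 4069 in WT EBs, 4737 in KO ESCs and 6677 in WT ESCs, and for Mcm2 they were 4453 in KO EBs, 4671 in WT EBs, 5285 in KO ESCs and 6947 in WT ESCs. Mcm2 and Mcm5 thus hardly differed between KO EBs and WT EBs, with log2 folds of -0.07 and 0.10, while both lay lower in KO ESCs, at -0.39 and -0.50. Mcm7 had log2 folds of -0.15 in EBs and -0.31 in ESCs.

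Cdt1, the licensing factor that brings the helicase to origins, had 2112 normalised counts in KO EBs, 1892 in WT EBs, 1959 in KO ESCs and 2759 in WT ESCs. WT ESCs stood apart and the other libraries lay close together. Orc1, the largest subunit of the origin recognition complex, had 670 in KO EBs, 1262 in WT EBs, 991 in KO ESCs and 1280 in WT ESCs. Its log2 fold of KO over WT was -0.91 in EBs, the lowest of the licensing genes, and -0.37 in ESCs. In ESCs the counting interval of KO over WT lay below 1 for all 8 measured licensing genes. In EBs it lay below 1 for 5, above 1 for Mcm5 and Cdt1, and held 1 for Mcm2. Such intervals were not counted over all genes, so no share stands beside these counts. Corrected for GC content, the log2 folds of Mcm5 and Cdt1 in EBs were -0.008 and -0.51.

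At the fork, Pcna had 355 normalised counts in KO EBs, 743 in WT EBs, 628 in KO ESCs and 1035 in WT ESCs, and KO EBs were 2.09-fold lower than WT EBs (1.79 to 2.46). With 77.9% of its windows copied elsewhere, these counts come from a small part of the gene. Rfc4, a subunit of the clamp loader, had 660 in KO EBs, 1333 in WT EBs, 762 in KO ESCs and 1016 in WT ESCs, and was 2.02-fold lower in KO EBs (1.8 to 2.27). It was the only measured fork gene highest in WT EBs. Rfc3, another subunit, had 715 in KO EBs, 932 in WT EBs, 865 in KO ESCs and 1024 in WT ESCs, a narrower span than that of Rfc4. Gins1 had 98.5 in KO EBs, 189 in WT EBs, 205 in KO ESCs and 189 in WT ESCs, from as few as 66 reads, so that KO EBs alone were low. Gins2 of the same complex did not follow it, with 554 in KO EBs, 539 in WT EBs, 711 in KO ESCs and 798 in WT ESCs. Gins1 is at 46.5% GC and Gins2 at 57.0%. Corrected for GC content, their log2 folds of KO EBs over WT EBs were -0.53 and -0.21.

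For the supply of deoxynucleotides, Rrm1 encodes the large and Rrm2 the small subunit of ribonucleotide reductase, and Tyms encodes thymidylate synthase. Rrm1 had 2118 normalised counts in KO EBs, 3625 in WT EBs, 3694 in KO ESCs and 3108 in WT ESCs, so that KO EBs alone were low. Rrm2 had 2530 in KO EBs, 2438 in WT EBs, 2398 in KO ESCs and 3710 in WT ESCs, so that WT ESCs alone were high. The subunits of 1 enzyme thus differed in pattern. Corrected for GC content, the log2 fold of KO EBs over WT EBs was -0.26 for Rrm1 and 0.27 for Rrm2. Tyms had 952 in KO EBs, 764 in WT EBs, 926 in KO ESCs and 939 in WT ESCs, a span of 1.25 times.

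In the list of 39 further replication genes, 30 were measured, and the medians were -0.41 in KO EBs over WT EBs, -0.30 in KO ESCs over WT ESCs, -0.28 in KO EBs over KO ESCs and -0.31 in WT EBs over WT ESCs. In KO EBs over WT EBs 23 of 30 lay below 0, against 53.5% of all genes, with 1 past 2-fold in each direction, beside 12.2% of all genes lower and 15.2% higher. The genes named next are the extremes among those that reached 100 normalised counts in either library of the comparison. The lowest were Orc4, of the origin recognition complex, with 261 normalised counts in KO EBs and 659 in WT EBs, and Wdhd1, which links helicase and polymerase, with 609 in KO EBs and 1206 in WT EBs. The highest were Tk1 (thymidine kinase) with 116 in KO EBs and 45.2 in WT EBs, and Dut (dUTPase) with 397 in KO EBs and 223 in WT EBs. Among ESCs the lowest were Gins3, with 73.1 in KO ESCs and 134 in WT ESCs, and Rnaseh2a, with 676 in KO ESCs and 1099.8 in WT ESCs. The highest there were Tk1, with 114 in KO ESCs and 64.6 in WT ESCs, and Chaf1a, a histone chaperone subunit, with 1849 in KO ESCs and 1550.4 in WT ESCs. The catalytic subunit of DNA polymerase alpha, Pola1, was the lowest of both EB changes, with 873 in KO EBs against 1933 in KO ESCs and 1426 in WT EBs against 3091 in WT ESCs. Next came Wdhd1 in KO, at 609 in EBs against 1314 in ESCs, and the polymerase epsilon subunit Pole in WT, at 1372 in EBs against 2748 in ESCs. Highest among the EB changes were Dut (log2 fold 0.79) and Orc6 (0.32) in KO, and Orc4 (0.28) and the polymerase delta subunit Pold1 (0.26) in WT. Members and further genes of replication thus had like medians, and Tk1, Dut and Orc4 have 2 entries each, so part of their reads was set aside. Orc4 (36.7% GC) and Wdhd1 (45.4%) are poorer in GC than Tk1 (55.8%) and Dut (57.5%). None of these folds is corrected for GC content.

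Of the mitosis genes, Kif11 (NM_010615; chromosome 19, 37376382 to 37421863), the motor that pushes spindle poles apart, had 930 normalised counts in KO EBs, 3052 in WT EBs, 1966 in KO ESCs and 2660 in WT ESCs. KO EBs stood far below the other libraries. KO was 3.28-fold lower than WT in EBs (3.00 to 3.60) and 1.35-fold lower in ESCs (1.29 to 1.42). Mki67 (NM_001081117; chromosome 7, 135689784 to 135716450), the proliferation marker that coats mitotic chromosomes, had 1149 in KO EBs, 2308 in WT EBs, 1001 in KO ESCs and 803 in WT ESCs. Here WT EBs stood apart, with KO EBs 2.01-fold lower (1.84 to 2.19). KO EBs had 1.15 times the Mki67 count of KO ESCs (1.05 to 1.25), whereas WT EBs had 2.87 times that of WT ESCs (2.65 to 3.11). Cenpf, a kinetochore protein, had 2611 in KO EBs, 5495 in WT EBs, 3142 in KO ESCs and 3926 in WT ESCs. Its ratio of KO to WT was 0.475 in EBs (0.448 to 0.503) and 0.800 in ESCs (0.771 to 0.831).

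Top2a, the topoisomerase that untangles sister chromatids, was the member with the most footprints, at 4990.0 normalised counts in KO EBs, 9317 in WT EBs, 7169 in KO ESCs and 10620.4 in WT ESCs. It was lower in KO than in WT at both stages, with log2 folds of -0.90 in EBs and -0.57 in ESCs. Cdk1, the kinase that drives entry into mitosis, had 2545 in KO EBs, 3254 in WT EBs, 2791 in KO ESCs and 3824 in WT ESCs. Per kb it was the highest of 37 members with a single entry in every library, from 2847 in KO EBs to 4277 in WT ESCs. Ccna2 (cyclin A2) had 1829 in KO EBs, 3232 in WT EBs, 2141 in KO ESCs and 3260 in WT ESCs, a pattern of genotype with little difference by stage in WT. Ccnb1 (cyclin B1) had 390 in KO EBs, 377 in WT EBs, 261 in KO ESCs and 448 in WT ESCs, but 92.4% of it is copied elsewhere. Ccnb2 (cyclin B2), with 3.25% copied, had 1954 in KO EBs, 2678 in WT EBs, 1796 in KO ESCs and 2129 in WT ESCs.

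The checkpoint kinase Bub1b had 1832 normalised counts in KO EBs, 2930.0 in WT EBs, 2475 in KO ESCs and 2948 in WT ESCs. Aurka, which acts at spindle poles, had 1488 in KO EBs, 2417 in WT EBs, 1917 in KO ESCs and 2035 in WT ESCs. In both, KO EBs were lowest and the ESC libraries lay closer together. Aurkb, of the chromosomal passenger complex, had 1082 in KO EBs, 1451 in WT EBs, 1304 in KO ESCs and 1168 in WT ESCs. Plk1, a kinase of mitotic entry and exit, had 1645 in KO EBs, 2383 in WT EBs, 1884 in KO ESCs and 1930.3 in WT ESCs. Between KO ESCs and WT ESCs these kinases differed by at most 1.19-fold (Bub1b).

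Cdc20 and Ube2c serve the ubiquitin ligase that ends mitosis. Cdc20 had 1367 in KO EBs, 2511 in WT EBs, 1225 in KO ESCs and 1951 in WT ESCs, and its ratio of KO to WT was 0.545 in EBs (0.502 to 0.591) and 0.628 in ESCs (0.593 to 0.665). Ube2c had 1349 in KO EBs, 1451 in WT EBs, 1070 in KO ESCs and 1343 in WT ESCs, and its counting interval of KO over WT in EBs held 1. Over the mitosis genes that interval lay below 1 for 12 of 14 in EBs and for 11 of 14 in ESCs, where Mki67 and Aurkb lay above it. These counts, too, have no share over all genes beside them.

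The 35 further mitosis genes, of which 27 were measured, had medians of -0.74 in KO EBs over WT EBs, -0.21 in KO ESCs over WT ESCs, -0.34 in KO EBs over KO ESCs and 0.06 in WT EBs over WT ESCs. In KO EBs over WT EBs 21 of 27 lay below 0, against 53.5% of all genes. There 8 lay past 2-fold in the lower direction, beside 12.2% of all genes, and 1 in the higher direction, beside 15.2%. That gene, Cks2, was named after its values were seen and rests on 33 reads in KO EBs and 5 in WT EBs, and every 28-nt window of it is copied elsewhere. The genes named next are the lowest and highest among those that reached 100 normalised counts in either library of the comparison, which leaves out Cks2. Kif18a, a kinesin that aligns chromosomes, had 381 normalised counts in KO EBs, 1156 in WT EBs, 671 in KO ESCs and 793 in WT ESCs. Ncapg, a condensin subunit, had 833 in KO EBs, 2411 in WT EBs, 1453 in KO ESCs and 2556 in WT ESCs. Both were lowest in KO EBs, as Kif11 was. Kif18a is at 39.3% GC and Ncapg at 40.3%. Over all genes of 31.9% to 42.6% GC the median log2 fold of KO EBs over WT EBs was already -0.96. At the other end, Spc24 of the kinetochore (60.2% GC) had 1897 in KO EBs and 1199 in WT EBs, and Birc5 (survivin) had 170 in KO EBs and 125 in WT EBs. The folds of further genes are given without the correction for GC content. Among ESCs, Ncapg (log2 fold -0.81) and Cdca8 of the passenger complex (-0.74) were lowest, and the transcription factor Foxm1 (0.45) and the kinesin Kif4 (0.29) were highest. Between KO EBs and KO ESCs the lowest were Kif18a (-0.82) and Ncapg (-0.80), and the highest were the centromeric histone gene Cenpa (0.46) and Cks1b (0.41), whose product binds cyclin-dependent kinases. Between WT EBs and WT ESCs the lowest were Birc5 (-0.71) and Spc24 (-0.56), and the highest were Hmmr (0.59), a spindle protein gene, and Kif18a (0.54).

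**Figure D4:**
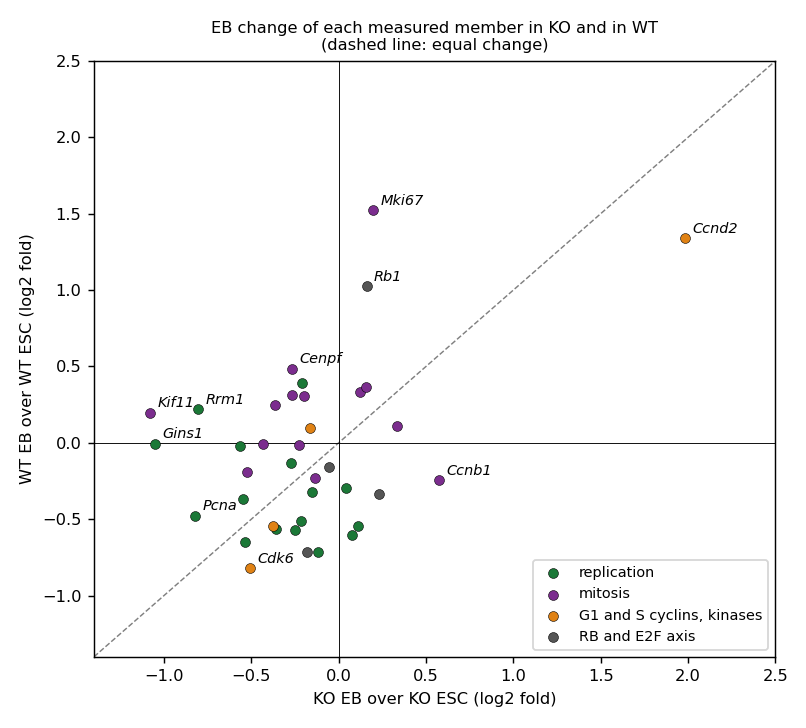
Log2 fold of EBs over ESCs in KO (horizontal axis) and in WT (vertical axis) for the 38 measured members, coloured by role, with a dashed line of equal change. Mki67, Rb1, Kif11, Rrm1 and Gins1 lie above the line, and Ccnd2 is at 1.98 in KO and 1.34 in WT; single libraries give no error bars.

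Among the G1 and S phase genes, Ccnd2 and Cdk6 went the other way from most replication and mitosis genes. Ccnd2 (cyclin D2; NM_009829, chromosome 6, 127125162 to 127152188) had 673 normalised counts in KO EBs, 232 in WT EBs, 170 in KO ESCs and 91.1 in WT ESCs. Both EB libraries were above both ESC libraries, and KO was above WT at each stage. Its ratio of KO to WT was 2.90 in EBs (2.40 to 3.51) and 1.86 in ESCs (1.5 to 2.32), and its ratio of EBs to ESCs was 3.97 in KO (3.43 to 4.6) and 2.55 in WT (1.99 to 3.28). Cdk6, a kinase partner of D-type cyclins, had 242 in KO EBs, 90.4 in WT EBs, 344 in KO ESCs and 160 in WT ESCs. KO was again above WT, with ratios of 2.68 in EBs (1.97 to 3.68) and 2.14 in ESCs (1.83 to 2.52), but EBs were below ESCs. The WT EB value rests on 58 reads.

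Cdk4, the other such kinase, had 1630.0 normalised counts in KO EBs, 2026 in WT EBs, 2113 in KO ESCs and 2953 in WT ESCs, so that KO was the lower genotype. Per kb, Cdk4 exceeded Cdk6 in every library, with 1787 against 246 in KO EBs, 2222 against 92.1 in WT EBs, 2317 against 350.2 in KO ESCs and 3238 against 163 in WT ESCs. Ccne1 (cyclin E1) had 1327 in KO EBs, 1252 in WT EBs, 1485 in KO ESCs and 1170 in WT ESCs, a span of 1.27 times. The cyclin genes Ccne2 and Ccnd3 and the kinase gene Cdk2 were among those listed at 0.

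On the RB and E2F axis, Rb1 (NM_009029; chromosome 14, 73192858 to 73325951), the pocket protein that holds E2F in check, had 185 normalised counts in KO EBs, 661 in WT EBs, 165 in KO ESCs and 324 in WT ESCs. WT EBs stood apart and both KO libraries were low. KO was 3.57-fold lower than WT in EBs (2.92 to 4.40) and 1.96-fold lower in ESCs (1.69 to 2.28), the lowest uncorrected member fold of both comparisons. Corrected for GC content, the log2 fold of Rb1 was -0.93 in EBs and -0.64 in ESCs. The lowest members were then Cdc20 in EBs (-0.99) and Cdt1 in ESCs (-0.87). E2f1, the activating factor, had 294 in KO EBs, 204 in WT EBs, 333 in KO ESCs and 335 in WT ESCs, so that WT EBs alone were low before any correction for GC content. Mybl2, which acts with the MuvB complex on mitosis genes, had 2764 in KO EBs, 2593 in WT EBs, 2354 in KO ESCs and 3278 in WT ESCs. Cdkn1b (p27), an inhibitor of CDK2, was the most even member, with 515 in KO EBs, 535 in WT EBs, 534 in KO ESCs and 595 in WT ESCs. Corrected for GC content, the log2 folds of KO EBs over WT EBs were -0.058 for E2f1, -0.34 for Mybl2 and -0.48 for Cdkn1b.

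Of the 26 further genes of G1 control, 21 were measured, with medians of -0.21 in KO EBs over WT EBs, 0.22 in KO ESCs over WT ESCs, -0.29 in KO EBs over KO ESCs and 0.12 in WT EBs over WT ESCs. The genes named next had the highest or lowest folds among those with 100 or more normalised counts in either library. The CDK4 and CDK6 inhibitor gene Cdkn2b had 339 normalised counts in KO EBs, 104 in WT EBs, 72.5 in KO ESCs and 43.6 in WT ESCs. Its neighbour Cdkn2a, which encodes another such inhibitor and ARF, had 373 in KO EBs, 139 in WT EBs, 174 in KO ESCs and 149 in WT ESCs. Both were highest in KO EBs, as Ccnd2 was. Cdkn2b is at 67.7% GC and Cdkn2a at 62.3%, and Cdkn2a has 2 entries, so part of its reads was set aside. Over all genes of 63.21% to 76.54% GC the median log2 fold of KO EBs over WT EBs was 0.89. It was 0.61 over those of 60.85% to 63.2%. The folds of these further genes are given without the correction for GC content. The repressor E2f7 had 169 in KO EBs, 482 in WT EBs, 319 in KO ESCs and 273 in WT ESCs, and the phosphatase gene Cdc25a had 543 in KO EBs and 1256 in WT EBs. Between ESCs the highest were Ccnd1 (cyclin D1), with 1544 in KO ESCs and 805 in WT ESCs, and E2f3, with 574 in KO ESCs and 343 in WT ESCs. The lowest there were Cdc25a (log2 fold -0.56) and E2f4 (-0.52). Among EB changes, Cdkn2b (2.21) and Cdkn2a (1.09) were highest and E2f7 (-0.92) and the checkpoint kinase gene Chek1 (-0.91) lowest in KO, while Cdkn2b (1.24) and E2f7 (0.82) were highest and Cdkn2d (-1.05) and Tfdp1 (-0.49) lowest in WT.

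The GC content of the coding sequence moved with these folds. Over 9597 genes with a coding sequence in the reference, Spearman's rho of GC content with the log2 fold was 0.50 in KO EBs over WT EBs, 0.30 in KO ESCs over WT ESCs, 0.40 in KO EBs over KO ESCs and -0.02 in WT EBs over WT ESCs. Over the 38 members it was 0.73 in KO EBs over WT EBs. These are descriptions across genes of shared libraries and carry no p-value. Rb1 (41.8% GC), Kif11 (42.1%), Cenpf (43.4%) and Rfc4 (43.7%) were among the members poorest in GC, and the median GC content was 50.0% over the members and 53.2% over all genes. For the correction, each gene was set against the median of its own GC bin, with the median of all genes kept. In KO EBs over WT EBs 0 members then stayed past 2-fold in the lower direction. Cdc20 (-0.99) was the lowest member, followed by Rb1 (-0.93) and Kif11 (-0.82). Ccnd2 (1.35) and Cdk6 (1.34) stayed past 2-fold in the higher direction. The mitosis median was then -0.51, with 13 of 14 genes below 0, against 54.1% of all genes. The replication median was -0.26. Coding length moved with the folds of KO EBs over WT EBs as well, with a Spearman's rho of -0.78 over the 14 mitosis genes, -0.39 over the 38 members and -0.14 over all genes, and its part in them was not tested.

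**Figure D5:**
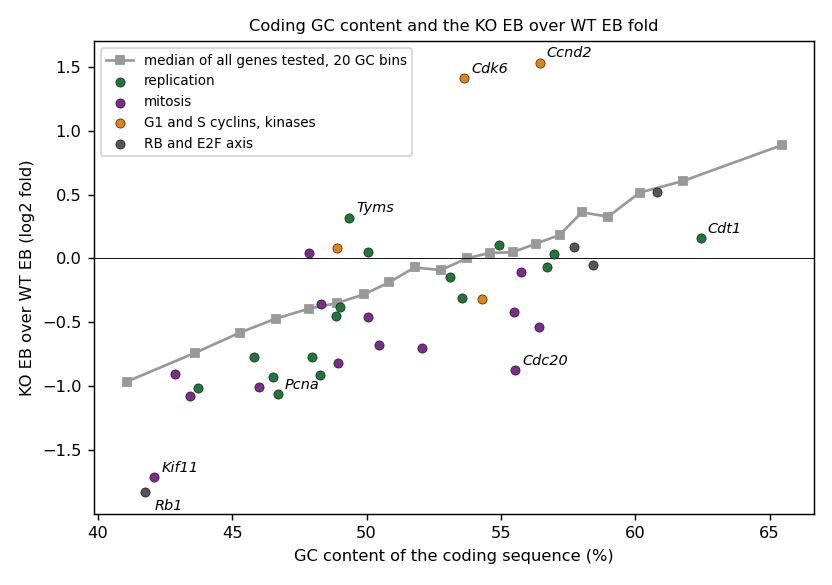
GC content of the coding sequence (percent) against the log2 fold of KO EBs over WT EBs for the 38 measured members, coloured by role, with the median of all genes in 20 GC bins as the grey line. Rb1 and Kif11 lie at the GC-poor end below the line, Ccnd2 and Cdk6 lie above it, and 13 of 14 mitosis genes lie below 0.

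A fit over all 4 libraries with genotype and stage as additive terms, by limma on log2 values with Benjamini-Hochberg adjustment over 9670 genes, had 1 residual degree of freedom. It therefore looked for differences shared by both stages or by both genotypes. No gene passed an adjusted p of 0.05 for KO over WT (0.0% higher and 0.0% lower), and 1627 did at an unadjusted p under 0.05. With only the 7482 genes of a mean of at least 100, limma called 66 genes higher and 12 lower for KO over WT, and no member. For EB over ESC 0.217% of genes passed as higher and 0.0517% as lower. No member was among them, and the smallest adjusted p of a member was 0.158 for KO over WT (Rb1, log2 fold -1.4) and 0.111 for EB over ESC (Ccnd2, log2 fold 1.66). At an unadjusted p under 0.05, 11 of the 38 members stood out for KO over WT, against 16.8% of all genes, and 3 of 38 for EB over ESC, against 12.2%. On the recovered reads edgeR's quasi-likelihood test called 0 members for either term, and for KO over WT 0 of all genes, with 1556 at an unadjusted p under 0.05. DESeq2 called 0 members for KO over WT, beside 2.6% of all genes called higher and 0.734% called lower. For EB over ESC it called 1 member, Ccnd2, with a log2 fold of 1.71, higher in EBs of both genotypes, and an adjusted p of 0.01, beside 2.89% of all genes called higher and 1.07% called lower.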

How the data were processed

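Ribosome footprints of 4 libraries (KO EBs, WT EBs, KO ESCs and WT ESCs), 1 per group, were analysed; titles gave the groups. The authors deposited, for each RefSeq coding sequence, a normalised signal made from read counts. The submitters' processing notes name mm10 and the tools DESeq, HTSeq 0.6.0, TopHat2 2.0.10, Bowtie and CASAVA 1.8.2; settings, annotation version and strand handling are not given in the sources read. Whole multiples of a library's smallest step, within 0.01, made up 100% of its values, which gave the read counts behind the deposited signal. No column was left unmatched (0). The table holds 27442 coding sequences, 27083 of them with a symbol, and 5 summary entries without a gene, which took 71.6% of reads in KO EBs, 68.7% in WT EBs, 66.6% in KO ESCs and 72.1% in WT ESCs and were left out. Reads without a unique place made up 48.4% to 55.7%, and ambiguous reads 8.62% to 10.5%.

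Entries were summed per gene to 20716 genes, and the 9670 with a mean of at least 25 were compared. The log2 fold used a pseudocount of 1, which understates folds of low genes; a gene counted past 2-fold, and read ratios had 95% conditional exact binomial (Clopper-Pearson) intervals. Pairs of libraries were given no p-value, as each group has 1. An additive fit of genotype and stage was run with limma 3.58.1 (R 4.3.3) on log2(value + 1), and with edgeR 4.0.16 (quasi-likelihood) and DESeq2 1.42.0 on the recovered reads as alternatives. Folds, intervals and fits were tested on simulated reads with counting error only, a fixed genotype effect in some genes and no stage effect. That simulation cannot show how the fits behave under the unknown variation between real libraries. Copied sequence was measured as the percent of 28-nt coding windows found elsewhere on the GRCm38.p6 chromosomes. Other pseudocounts, filters, scalings, a limit on copied sequence and a 1.5-fold threshold were tried.

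The members, the further gene lists, the marker lists and the naming rule were chosen with earlier results of these data known. The rule named members at least 2-fold apart, the 3 highest and 3 lowest members of each role group, and the 2 highest and 2 lowest genes of each further list that reached 100 in either library. The correction for GC content was chosen after seeing the data.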

Additional observations from a re-analysis of the deposited data

Results flagged for a closer look

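The sign of the log2 fold of KO over WT differed between EBs and ESCs for 12 of the 38 measured members, against 3380 of all 9670 genes, and the sign of EBs over ESCs differed between KO and WT for 13, against 4080 of all genes. The counting intervals lay on opposite sides of 1 for 5 of the 12 (Mcm5, Cdt1, Rrm1, Mki67 and Aurkb) and for 10 of the 13. Such intervals were not counted over all genes. Corrected for GC content, Mcm5 (-0.008 in EBs, -0.63 in ESCs) and Cdt1 (-0.51 and -0.87) no longer had opposite signs. Rrm1, Mki67 and Aurkb still did. Among the 10 with opposite intervals of EBs over ESCs, Cdt1, Rfc4, Cenpf and Mybl2 had like signs in KO and WT when corrected. The others of the 10 kept opposite signs. Values follow for the 4 members whose opposite folds were also at least 1 apart on the log2 scale. That rule was not run over all genes, and with 1 library per group none of these differences was tested. The log2 fold of KO over WT for Gins1 was -0.93 in EBs and 0.12 in ESCs. For Rrm1 it was -0.78 in EBs and 0.25 in ESCs, and the log2 fold of EBs over ESCs was -0.80 in KO and 0.22 in WT. For Mki67 the log2 fold of KO over WT was -1.01 in EBs and 0.32 in ESCs. For Kif11 the log2 fold of EBs over ESCs was -1.08 in KO and 0.20 in WT.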

How the results depend on the processing

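Each result was recomputed under 1 changed choice at a time. Scaled to the same total, KO ESCs over WT ESCs had 2 members at least 2-fold higher, a replication median of -0.28 and a mitosis median of -0.20, and KO EBs over WT EBs had 2 members at least 2-fold lower, with medians of -0.23 for replication and -0.57 for mitosis. With the 27 members under 10% copied alone, the members higher numbered 1 in KO EBs over WT EBs and 0 in KO ESCs over WT ESCs, those lower in KO EBs over KO ESCs numbered 1, and the replication median of the difference of EB changes reversed to -0.014. At 1.5-fold, the members lower numbered 15 in KO EBs over WT EBs (25.1% of all genes were), 8 in KO ESCs over WT ESCs (13.4%), 4 in KO EBs over KO ESCs (19.0%) and 5 in WT EBs over WT ESCs (15.6%). At that limit 2 were higher in KO ESCs over WT ESCs (20.5% of all genes), and the difference of EB changes had 5 higher (21.0%) and 8 lower (25.4%). Corrected for GC content, which was chosen after seeing the data, 0 members were lower in KO EBs over WT EBs, in KO EBs over KO ESCs and in the difference, where 1 was higher. The mitosis median was then -0.51 in KO EBs over WT EBs, -0.19 in KO ESCs over WT ESCs and -0.031 in KO EBs over KO ESCs, and the replication median minus the mitosis median was -0.20 in KO ESCs over WT ESCs and -0.27 in KO EBs over KO ESCs. DESeq2 called 1 member for EB over ESC, where limma called 0. Beyond the windows and bins that these alternatives remove by construction, the cause was not tested. Of the folds of single members under all alternatives, 1117 kept their side of the 2-fold limit, 21 slipped inside it, 2 moved past it, and 0 reversed past it. Direction was followed only for folds past 2-fold, and some smaller folds changed sign. Cdt1 in KO EBs over WT EBs, for example, went from 0.16 to -0.51 with the correction for GC content. Rfc4 and Mki67 in KO EBs over WT EBs, at 2.02-fold and 2.01-fold lower, slipped inside it also with TMM factors.

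No paired analysis was possible because each group has 1 library and no replicate numbers are shared. Leaving out a library was not run, since it would remove a whole group and the 1 residual degree of freedom of the additive fit. The depth was 4075850 to 11455539 reads on genes, and Cdk6 in WT EBs (58 reads) and Gins1 in KO EBs (66 reads) are the measured members with the widest counting error.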
